A study of Mus musculus with 3 samples.

Results

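The 42 genes described here encode the degrading machinery of the lysosome, the acidic compartment in which cells break down proteins, lipids and glycans. They were listed by gene symbol, with earlier results of these data known, and all 42 symbols were found among the 22028 protein-coding genes of the deposited tables, which list 55536 annotated genes in all. The list falls into 5 groups by role. There are 11 genes of lysosomal proteolysis, here called the cathepsin group (9 cathepsins, the asparagine-specific protease legumain and the inhibitor cystatin C), 12 other hydrolases and their protein partners, 6 genes of the lysosomal membrane and cholesterol export, 11 subunits of the vacuolar proton pump (V-ATPase) and the 2 transcription factors Tfeb and Tfe3.

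Lysosomal enzymes work in an acid lumen, which the V-ATPase maintains by pumping protons across the membrane at the cost of ATP. The pump has a membrane sector, V0, whose genes carry the prefix Atp6v0, and a cytosolic sector that splits ATP, V1, whose genes carry the prefix Atp6v1. The factors TFEB and TFE3 enter the nucleus when nutrients are short or lysosomes are stressed and bind a short element with the core CACGTG in front of many lysosomal genes. Macrophages depend on this system to digest what they engulf and to cut antigens into peptides.

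The data were total RNA-seq of chromatin-bound RNA from 3 libraries of 1 group, made from primary macrophages that had been grown from the bone marrow of C57BL/6J mice. All 3 had received Lipid A, the membrane anchor of bacterial lipopolysaccharide, at 100 ng/ml during 12 h, then 12 h without it, then 100 ng/ml again during 40 min. The RNA input was 1 µg in replicate 1, 250 ng in replicate 2 and 500 ng in replicate 3. The labels number the samples as biological replicates but give them the same strain-level donor and no age or sex, so the spread between them may be technical. Cells without Lipid A were not analysed here, so what follows describes levels, their spread and the transcripts behind them, and no response to the treatment.

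Depth ranged from 13802716 to 17187524 expected counts (estimated fragments that need not be whole) in annotated genes. The 42 genes held 113893, 139936 and 127554 of these in replicates 1, 2 and 3, which was 1.24%, 1.35% and 1.24% of the counts in protein-coding genes. A gene with no count could still have up to 3 counts, or 0.175 to 0.217 CPM (counts scaled to the library total), which covers counting error only. The label macrophage was checked against marker genes. All 10 macrophage markers were detected (a mean of at least 10 expected counts), with a summed level of 1127 to 1245 TPM per library (a level scaled to transcript length and to the total of the library), led by Adgre1 with 368 ± 35.6 TPM (SD, n = 3). None of 9 neutrophil, 5 T cell and 5 B cell markers was detected, and 3 of 8 osteoclast, 3 of 7 fibroblast and 2 of 7 dendritic cell markers were, with summed levels of at most 1.45, 0.17, 0.25, 13.6, 1.79 and 1.72 TPM. In the quantification made directly from the reads, 2, 3, 1, 4, 5 and 5 markers of these cell types, in the same order, reached that limit. The osteoclast markers detected were Nfatc1, Acp5 and Itgb3, with means of 9.53, 0.987 and 0.277 TPM. Dcstamp, Oscar and Mmp9 were under the limit. Calcr and Ocstamp were listed at 0 in each library of the gene tables, while the read-based table gave Ocstamp a mean of 7.06 TPM. The T cell gene Cd3d, also at 0 in the gene tables, had a mean of 15.6 TPM there. Replicate 2 stood apart from the other two libraries. The common biological coefficient of variation over all genes, estimated with edgeR, was 0.223 with 3 libraries and 0.169 without replicate 2, against 0.246 without replicate 1 and 0.240 without replicate 3. In bulk RNA, fewer cells of a type and less RNA per cell cannot be told apart.

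As a list, the lysosomal genes lay high among the genes of these cells. A mean of at least 10 expected counts, the limit used here for detection, was reached by 41 of the 42 (97.6%), against 49.7% of all protein-coding genes, and the read-based table brought the count to 42. The top 10% of protein-coding genes by mean TPM held 28 of the 42 (66.7%). Among detected genes alone, 28 of 41 members (68.3%) stood there, against 20.1% of all detected protein-coding genes. With the top 10% taken among detected genes instead, it held 18 members. The median member had 51.7 TPM and a percentile rank of 94.2, against 7.32 TPM and 75.2 for the median detected protein-coding gene. These shares are descriptions, since the list was drawn up with these levels known and macrophages are known to use such genes. The range was wide: 15 members had at least 100 TPM, 5 had under 5 TPM, and the span ran from 0.433 TPM for Smpd1 to 1068 TPM for Tcirg1.

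**Figure D1:**
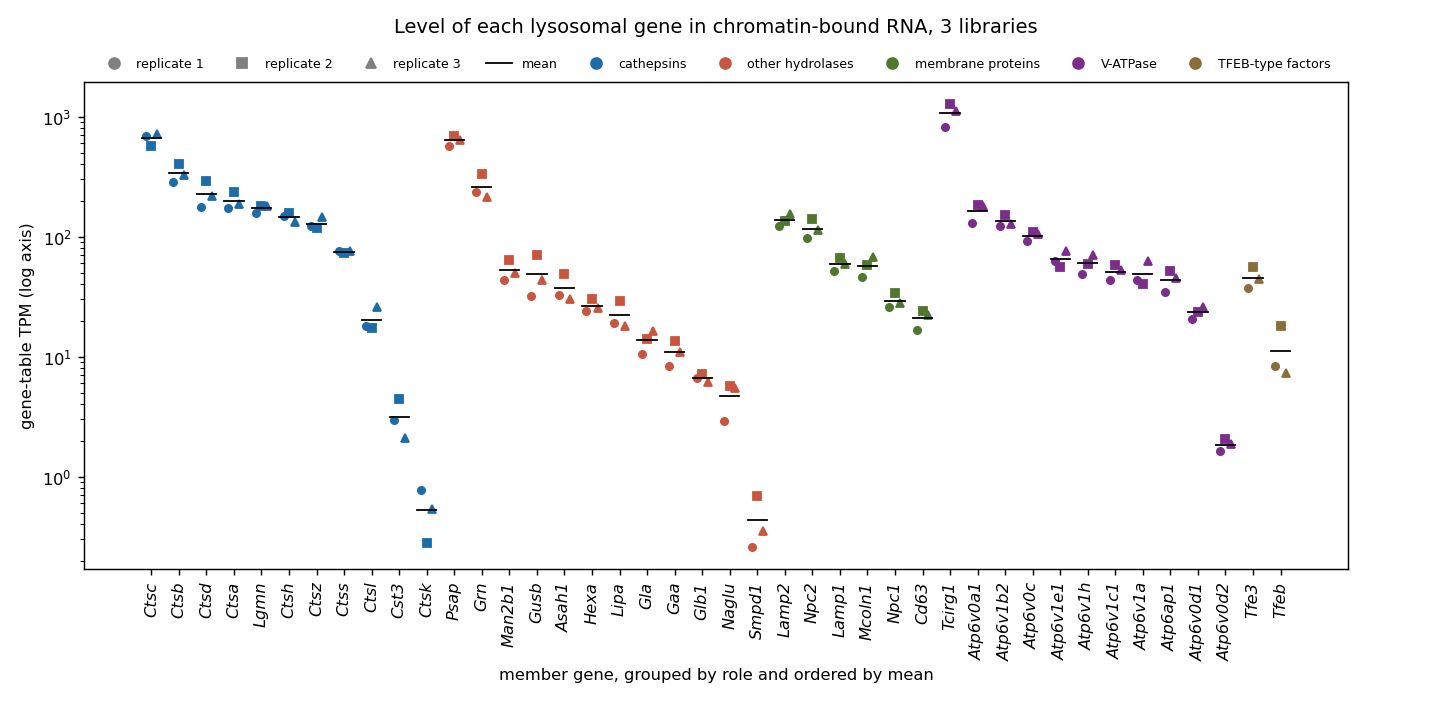
Level of each of the 42 genes in TPM from the gene tables (log axis), 1 symbol per library and a line at the mean of 3. Genes are grouped by role and ordered by mean, so the steps within a role can be compared with the scatter of the 3 libraries. Tcirg1 tops the V-ATPase group at 1068 TPM, while Naglu, Cst3, Atp6v0d2, Ctsk and Smpd1 lie under 5 TPM.

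A large part of the members' TPM lay in transcripts that the annotation calls retained intron. These are non-coding models annotated as containing intron sequence of other transcripts of the gene. TPM divides by length, so a short model weighs more in such shares than it does in reads. In Ctsb the retained-intron models have 1269 and 801 bases, and the coding model has 4743. Shares of reads were not computed. Of the 41 detected members, 29 (70.7%) have at least 1 such annotated transcript, against 61.3% of detected protein-coding genes. In these 29 the median share of TPM carried by retained-intron models was 45.2%, against 41.1% in the 6710 detected protein-coding genes with both kinds of transcript. More than 50% of the TPM lay there in 13 of the 29 (44.8%), against 35.9% of those 6710 genes. The members' shares thus lay near those of other genes. From the reads 14 of the 29 had more than 50% there, and the share differed by over 1.5 times between the tables in 4 of the 29, namely Atp6v1h, Atp6v0d1, Lipa and Tfeb. A read from RNA that is still being spliced and a read from a stable intron-containing RNA cannot be told apart in these tables, and chromatin-bound RNA can hold both.

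In 17 of the 29 members a retained-intron transcript held at least 1 whole intron of the gene's transcript with the longest coding sequence. A whole intron here includes 15 exon bases on each side. In the rest of the 29, among them Ctsb, Npc2, Ctsc and Lamp1, no such model did. Retained-intron shares of those genes thus do not show that a whole intron of that transcript was kept. The 17 members held 44 such introns, of 76 to 2519 bases with a median of 236 bases. All 44 began with GT and ended with AG as usual splice sites do. Only 3 were the first intron of their transcript and 3 the last. Splice sites of 5 of them are printed because their genes ranked lower when coding transcripts alone were counted. Each line has 30 bases of mm10 on the strand of the gene, with the first GT or the last AG of the intron in capitals and the neighbouring exon in the other 15 bases.
Tcirg1 intron 5, donor: agacctgaaggtcaaGTgagtcggggcagt
Tcirg1 intron 5, acceptor: cagccctgttggcAGttttgtggcaggtgc
Ctsa intron 3, donor: gcacttccactactgGTgcttggcttggcc
Ctsa intron 3, acceptor: tcctatccttcccAGgtttgtggagtcgca
Grn intron 7, donor: tgtccaatgcccaatGTgagtgaatggctg
Grn intron 7, acceptor: cttgtcccaacctAGgccatctgctgttcc
Atp6v1b2 intron 6, donor: ttaccacacaacgagGTgagggcagatgga
Atp6v1b2 intron 6, acceptor: tttcatccttaacAGattgcagctcagatc
Tfe3 intron 6, donor: aacgcgagatctccgGTaagtgttagggac
Tfe3 intron 6, acceptor: ctcactctcttccAGaaaccgaggcaaagg

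The Tcirg1 intron is the fifth of 19 (chr19:3903173-3903339, minus strand, 167 bases), and the 2 transcripts that keep it held 24.3% ± 3.70 of Tcirg1 TPM together (SD, n = 3), or 21.4% in the read-based table. The Ctsa intron is the third of 15 (chr2:164834209-164834319, plus strand, 111 bases), kept in 3 transcripts with 33.8% ± 1.31 of Ctsa TPM together, or 20.3% in the read-based table. The Grn intron is the seventh of 12 (chr11:102434510-102434702, plus strand, 193 bases), kept in a transcript with 15.9% ± 3.10 of Grn TPM, or 10.5% from the reads. All 5 introns lie between coding exons, so these are not introns of an untranslated region. The Atp6v1b2 intron is the sixth of 13 (chr8:69102591-69102761, plus strand, 171 bases), kept in a transcript with 18.5% ± 1.78 of Atp6v1b2 TPM, or 17.0% from the reads. The leading Tfe3 transcript kept the sixth of 9 introns (chrX:7769548-7770773, plus strand, 1226 bases) and held 29.0% ± 1.72 of Tfe3 TPM, or 25.2% from the reads.

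**Figure D2:**
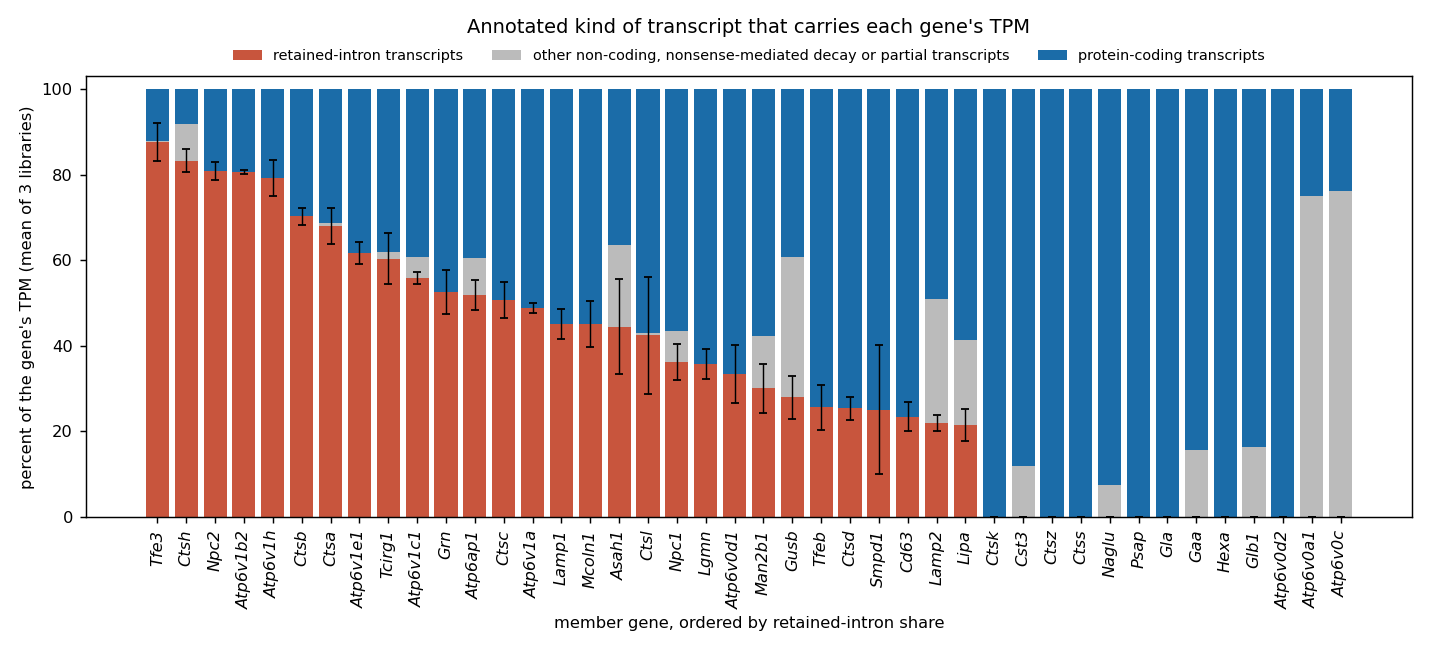
Percent of the TPM of each gene that lay in retained-intron transcripts, in other non-coding or nonsense-mediated decay models, and in protein-coding transcripts, as means of 3 libraries. Classes follow the annotated kind of transcript, so short models annotated as protein-coding count as protein-coding. Error bars are the SD of the retained-intron share (n = 3), and genes are ordered by that share. Tfe3 has 87.7% and Ctsh 83.3% in retained-intron transcripts, while all of Psap, Ctsz and Ctss lies in protein-coding ones.

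Counting coding transcripts alone changed the order of the list. Over the detected members the median share of TPM in protein-coding transcripts was 54.9%, against 61.5% over detected protein-coding genes, and 18 of 41 (43.9%) had under 50% of their TPM there, against 36.8%. The median level of the 29 members with a retained-intron transcript was 57.4 TPM, against 20.2 TPM for the 12 without one. In protein-coding transcripts alone those medians were 22.2 and 19.0 TPM. Over all detected protein-coding genes the medians were 10.7 TPM with and 3.99 TPM without such a transcript, and 4.55 and 3.20 TPM in coding transcripts. TPM in coding transcripts is not a measure of finished mRNA either, since exon reads of unspliced RNA can be assigned to them.

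Single transcripts seldom carried a gene alone. In the 39 detected members with 2 or more annotated transcripts the leading one held a median of 44.0% of the TPM, against 47.9% over detected protein-coding genes. Which transcript led depended on the quantification: the read-based table put another one first in 18 of the 39. In the authors' transcript table that goes with the gene table the leading model was a coding one in Psap (Psap-202 with 72.4% ± 0.576), Ctsc (Ctsc-203 with 39.0% ± 3.52) and Tcirg1 (Tcirg1-201 with 27.4% ± 3.62). It was a retained-intron model in Npc2 (43.8% ± 1.88), Atp6v1a (48.9% ± 1.18), Atp6v1b2 (35.2% ± 3.93) and Atp6ap1 (40.4% ± 0.812). From the reads Psap-202 held 15.1%, Ctsc-203 24.6% and Tcirg1-201 12.2%, and none of the 3 led. Another coding transcript led Psap there with 33.4%, and retained-intron models led Ctsc with 37.1% and Tcirg1 with 16.2%. Of the other 4, Atp6v1a, Atp6v1b2 and Atp6ap1 had the same leading transcript in both tables, and Npc2 had another retained-intron model first.

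**Figure D3:**
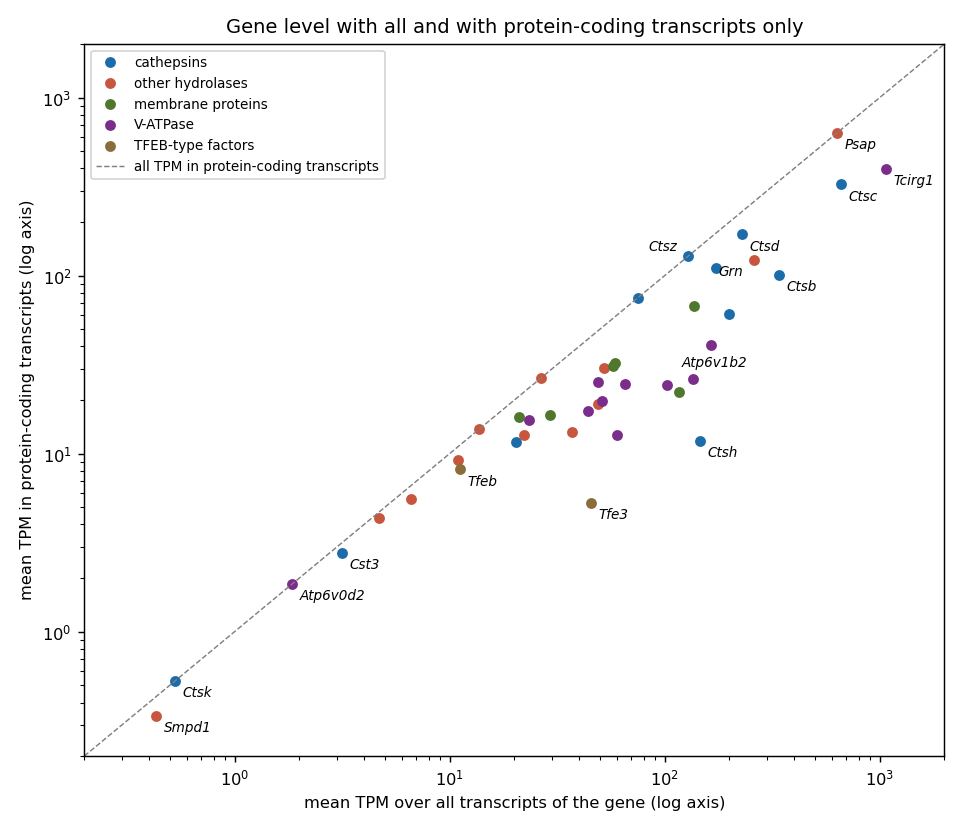
Mean TPM in protein-coding transcripts against mean TPM over all transcripts, 1 point per gene, both axes logarithmic, coloured by role. The dashed line marks genes whose TPM lies wholly in protein-coding transcripts. Psap lies on the line at 633 TPM, above Tcirg1 with 397 coding TPM, and Tfe3 falls below Tfeb.

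The promoters of the list held the CACGTG core more often than promoters at large. RefSeq promoter windows (GRCm38.p6, from 250 bases before to 50 bases after an annotated start, 300 bases each) were matched by symbol for 34 of the 42 genes, with 44 windows. The 6 letters CACGTG were found, on either strand, in at least 1 window of 12 of the 34 (35.3%), against 8.91% of 17492 protein-coding genes. The longer TCACGTG, which contains that core, was found in 11 (32.4%) against 5.0%, and the palindrome TCACGTGA in 6 (17.6%) against 1.41%. That palindrome with a G before it and a C after it was in none of the 34, against 0.469%. The core is known from the front of many lysosomal genes, so the share describes the list only. The 17492 genes were not limited to those detected in these cells, and shares among detected genes were not computed. A match is a run of letters and not a measured binding site, and these shares were not tested.

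TCACGTG was present in 3 of 9 cathepsin-group genes with a window, 4 of 11 other hydrolases, 2 of 5 membrane genes, 2 of 7 V-ATPase genes and neither factor gene. Windows of 27 bases are printed for 5 of the 11, as examples from 4 roles, with TCACGTG in capitals and the strand of the gene. Position is counted from the RefSeq start to the first capital. In GENCODE M21, the annotation of the levels, the Ctsd, Mcoln1 and Atp6v1a genes begin further upstream and include the printed window.
Ctsd, 99 bases upstream: cgcccgcgtcTCACGTGacccgttgag
Gla, 228 bases upstream: aagcgattgaTCACGTGagcatctacg
Gla, 195 bases upstream: gagatctcggTCACGTGagcaactctc
Lamp1, 62 bases upstream: gggcaagataTCACGTGgtccagcgcc
Mcoln1, 46 bases upstream: ggcgccccgcTCACGTGaccgcggcgc
Atp6v1a, 132 bases upstream: tttttttaaaTCACGTGataggcttaa
They lie at chr7:142387910-142387936 (Ctsd, minus strand), chrX:134601217-134601243 and chrX:134601184-134601210 (Gla, minus strand), chr8:13159089-13159115 (Lamp1, plus strand), chr8:3500463-3500489 (Mcoln1, plus strand) and chr16:44139375-44139401 (Atp6v1a, minus strand). In Ctsd, Gla, Mcoln1 and Atp6v1a an A follows, which completes the palindrome TCACGTGA. The median level was 49.0 TPM for the 11 members with the 7 letters and 52.4 TPM for the 23 with a window but no match. Levels within the 11 ran from 4.71 TPM for Naglu to 229 TPM for Ctsd. A difference between the medians was not tested.

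The cathepsin group had the highest median level of the 5, 146 TPM, and 8 of its 11 genes stood in the top decile. Ctsc (ENSMUSG00000030560.17, chromosome 7, 88278085 to 88310888), a dipeptidyl peptidase that activates serine proteases of immune cells, led it with 690.6, 566 and 720.3 TPM in replicates 1, 2 and 3. Ctsb (ENSMUSG00000021939.8, chromosome 14, 63122462 to 63145923), a cysteine protease, followed with 286, 407 and 329.6 TPM, and its libraries did not reach those of Ctsc. Next came the aspartic protease gene Ctsd with 229 ± 58.9, the carboxypeptidase gene Ctsa with 199 ± 33.1, the legumain gene Lgmn with 173 ± 13.5, the aminopeptidase gene Ctsh with 146 ± 12.6 and the carboxypeptidase gene Ctsz with 129 ± 14.8 TPM (SD, n = 3). From Ctsb to Lgmn each gene was higher than the next in all 3 libraries but their ranges overlapped, and Ctsh and Ctsz overlapped without a fixed order.

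Ctss, whose product trims the invariant chain of MHC class II, had 76.2, 72.8 and 76.2 TPM, while its depth-scaled counts, as CPM after TMM scaling (trimmed mean of M values), spread more widely, at 89.5, 61.5 and 72.5. Ctsl, a cysteine protease with overlapping substrates, had 18.1, 17.3 and 25.8 TPM, so the ratio of Ctsb to Ctsl was 17.4 ± 5.56 (15.8, 23.6 and 12.8 in the 3 libraries). That ratio depended on the quantification, with 7.77 from the read-based table, 9.52 in protein-coding transcripts and 4.32 in protein-coding transcripts of the read-based table. Cst3 (ENSMUSG00000027447.6, chromosome 2, 148871722 to 148875692), which encodes the secreted inhibitor of these enzymes, was low, with 2.95, 4.42 and 2.10 TPM from 26, 37 and 17 counts. Its level was 0.00918 ± 0.00245 of that of Ctsb. Ctsk (ENSMUSG00000028111.4, chromosome 3, 95499256 to 95509362), the collagen-degrading protease of osteoclasts, was the 1 member under the detection limit, with 14, 5 and 9 counts and 0.77, 0.28 and 0.54 TPM. From the reads it had a mean of 1.14 TPM and reached the limit.

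Transcript make-up differed within the cathepsin group. Ctsz, Ctsk and Ctss have no annotated retained-intron transcript, and their TPM lay wholly in coding ones. Ctsh had 83.3% ± 2.67 of its TPM in retained-intron transcripts, Ctsb 70.4% ± 1.98 and Ctsa 68.0% ± 4.29, with close values in the 3 libraries. In Ctsb a single such transcript, Ctsb-203, held 63.7% ± 1.25, whereas from the reads it held 36.0% and another retained-intron transcript, Ctsb-202, led with 45.3%. Ctsc had 50.7% ± 4.25, Ctsl 42.5% ± 13.7, Lgmn 35.8% ± 3.47 and Ctsd 25.4% ± 2.59. In coding transcripts alone Ctsc still led with 326 ± 57.6 TPM, followed by Ctsd with 170.2 ± 41.6, Ctsz with 129 ± 14.8, Lgmn with 111 ± 11.2 and Ctsb with 100.5 ± 14.2, and Ctsh stood at 11.8 ± 2.92 TPM. Ctsb, which ranked 4 of the 42 genes by all transcripts, ranked 8 by coding transcripts, and Ctsh ranked 10 and 32. In coding transcripts of the read-based table Ctsb again ranked 8, while Ctsh ranked 17 with a mean of 42.2 TPM.

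The hydrolase group was more uneven. Psap (ENSMUSG00000004207.14, chromosome 10, 60277627 to 60302597), the precursor of the saposins that present sphingolipids to their hydrolases, had 573, 690.5 and 636 TPM. Grn (ENSMUSG00000034708.11, chromosome 11, 102430315 to 102437048), the progranulin gene, had 238, 331 and 215 TPM. Both encode partners of enzymes rather than enzymes, and no enzyme gene of the group reached them in any library. The enzyme genes began with Man2b1, a lysosomal mannosidase, at 52.4 ± 10.3, Gusb, the glucuronidase, at 48.8 ± 19.6, and Asah1, acid ceramidase, at 37.2 ± 10.1 TPM. Ranges of these 3 overlapped. Hexa, a subunit of hexosaminidase A, had 26.6 ± 3.40, Lipa, the acid lipase, 22.1 ± 6.30, Gla, alpha-galactosidase A, 13.7 ± 2.97, Gaa, acid alpha-glucosidase, 11.0 ± 2.57, Glb1, beta-galactosidase, 6.62 ± 0.491, and Naglu, an enzyme of heparan sulfate breakdown, 4.71 ± 1.56 TPM. Smpd1 (ENSMUSG00000037049.9, chromosome 7, 105554360 to 105558389), acid sphingomyelinase, closed the list with 0.26, 0.69 and 0.35 TPM from 8, 21 and 10 counts.

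With all 12 detected, the hydrolase group had 5 genes in the top decile and a median of 24.4 TPM. Psap has 5 annotated transcripts, none of them a retained-intron model, and it ranked 1 of the 42 genes by coding TPM with 633 ± 58.8, against rank 3 by all transcripts. Grn had 52.6% ± 5.08 of its TPM in retained-intron transcripts, and 123 ± 23.2 TPM in coding ones. Asah1 had 44.5% ± 11.1, Man2b1 30.1% ± 5.67, Gusb 28.0% ± 5.04 and Lipa 21.6% ± 3.78 (14.4% from the reads), while Hexa, Gla, Gaa, Glb1 and Naglu have no such transcript. In Gusb the leading transcript, Gusb-206, is annotated for nonsense-mediated decay and held 32.8% ± 2.96.

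Among the 6 genes of the membrane group, 5 lay in the top decile, and the median was 58.2 TPM. Lamp2, a heavily glycosylated protein of the lysosomal membrane, led with 122, 135 and 154 TPM, above its relative Lamp1 with 51.7, 65.8 and 59.1 TPM. The libraries of the pair did not overlap, and the ratio of Lamp1 to Lamp2 was 0.431 ± 0.0518, close to the 0.446 from the read-based table and 0.480 in coding transcripts. Npc2, a soluble carrier that takes cholesterol in the lumen and passes it to the membrane protein Npc1, had 97.3, 139 and 114 TPM, and Npc1 had 25.9, 33.7 and 28.0 TPM. Their ratio, Npc1 over Npc2, was 0.251 ± 0.0131 by all transcripts and 0.748 ± 0.124 in coding ones, as 80.9% ± 2.03 of Npc2 and 36.2% ± 4.14 of Npc1 lay in retained-intron transcripts. Mcoln1, a cation channel that releases lysosomal calcium, had 57.4 ± 10.8 TPM with a range that overlapped that of Lamp1. Cd63, a tetraspanin of late endosomes, was lowest with 16.8, 24.2 and 22.1 TPM, and 76.6% ± 3.43 of it lay in the coding transcript Cd63-201.

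All 11 V-ATPase genes of the list were detected and 9 stood in the top decile, with a median of 59.8 TPM. Tcirg1 (ENSMUSG00000001750.16, chromosome 19, 3896050 to 3907133), which encodes the a3 isoform of the V0 subunit a found in lysosomes and in the osteoclast membrane, had 819, 1274 and 1111 TPM. It ranked 13 among all protein-coding genes. Atp6v0a1 (ENSMUSG00000019302.16, chromosome 11, 101009452 to 101063719), which encodes the a1 isoform, had 131, 185 and 179 TPM, so Tcirg1 was 6.25, 6.89 and 6.22 times as high (6.45 ± 0.376). The excess of Tcirg1 over Atp6v0a1 was 4.91 ± 0.108 from the read-based table and 9.81 ± 0.707 in coding transcripts. Of the other isoform genes of subunit a, Atp6v0a2 had 13.2, 20.3 and 11.8 TPM and Atp6v0a4 was listed at 0 in each library.

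For subunit d of V0, Atp6v0d1, the widely expressed isoform, had 20.6, 23.6 and 26.0 TPM, against 1.63, 2.06 and 1.87 TPM for Atp6v0d2, an isoform known from osteoclasts and macrophages. The ratio of Atp6v0d1 to Atp6v0d2 was 12.7 ± 1.23, or 14.8 from the read-based table and 8.39 in coding transcripts, and Atp6v0d2 rested on 53 to 67 counts per library. Atp6v0c, the proton-carrying ring subunit, had 102 ± 9.06 TPM. Its partner in the ring, Atp6v0b, which is not among the 42, had 207, 218 and 274 TPM.

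In the V1 sector the catalytic subunit gene Atp6v1a had 43.6, 40.6 and 62.9 TPM, against 124, 153 and 129 TPM for Atp6v1b2, which encodes the subunit B that alternates with it in the ring. The ratio of Atp6v1b2 to Atp6v1a was 2.88 ± 0.859 over all transcripts. The complex holds equal numbers of the A and B proteins, with which a ratio of chromatin-bound RNA cannot be compared. In coding transcripts alone it was 1.10 ± 0.381. Retained-intron transcripts held 80.7% ± 0.542 of Atp6v1b2 TPM, against 48.9% ± 1.18 for Atp6v1a. In coding transcripts of the read-based table the ratio was 0.528 ± 0.172, with retained-intron shares of 85.9% for Atp6v1b2 and 35.9% for Atp6v1a. There the coding model Atp6v1a-203, which had no TPM in the gene-table quantification, held more of Atp6v1a than any other coding model. The kidney-type paralog Atp6v1b1 was under the detection limit with 0.39, 0.58 and 0.17 TPM. The stalk and regulatory subunit genes Atp6v1e1, Atp6v1h and Atp6v1c1 had 65.1 ± 9.96, 59.8 ± 10.8 and 51.0 ± 7.30 TPM, and the accessory gene Atp6ap1 had 44.0 ± 8.69. Atp6v1e1 and Atp6v1h overlapped without a fixed order, as did Atp6v1a with Atp6v1c1 and Atp6v1a with Atp6ap1. Atp6v1c1 was above Atp6ap1 in each library, though their ranges overlapped.

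**Figure D4:**
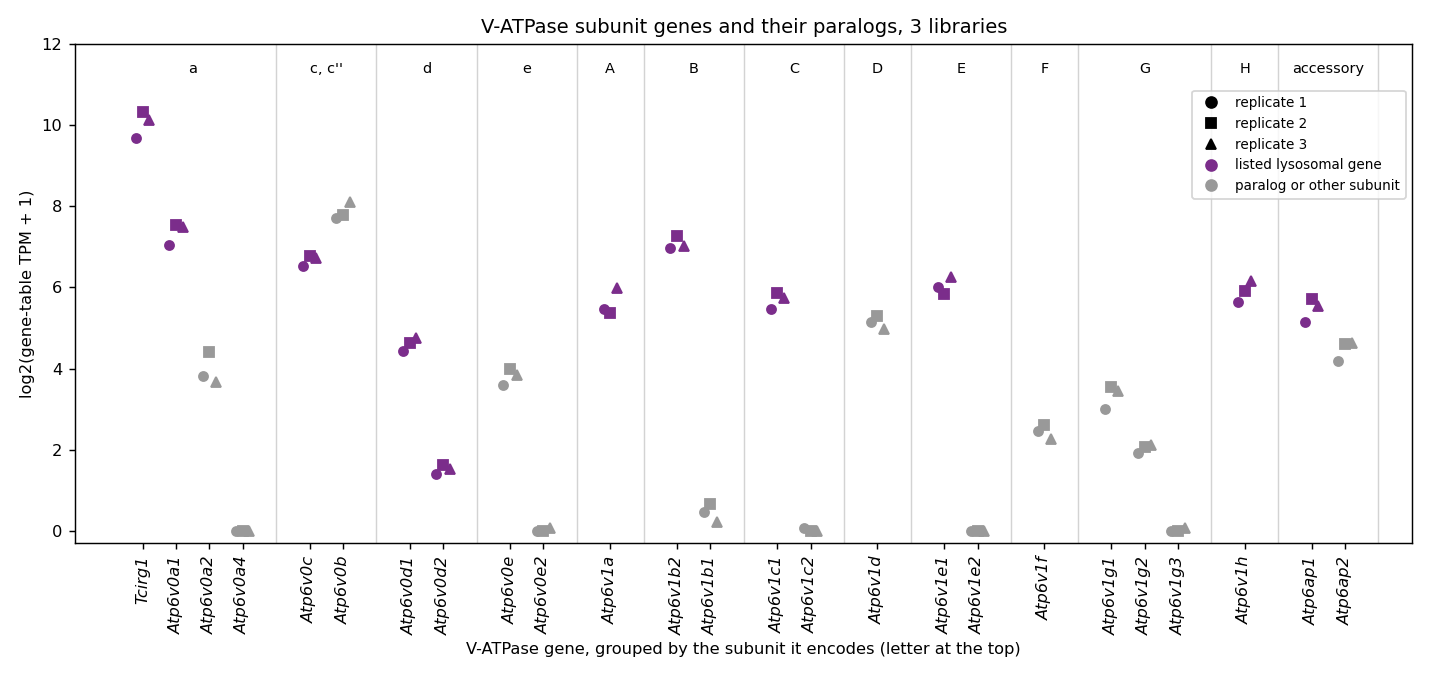
Level of 25 V-ATPase genes as log2(gene-table TPM + 1), 1 symbol per library, grouped by subunit, with the 11 listed genes in purple and paralogs or other subunits in grey. For subunits B, C and E the listed gene lies far above its paralog, and for subunit a the order is Tcirg1, Atp6v0a1, Atp6v0a2 and Atp6v0a4.

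Atp6v1h had 79.3% ± 4.19 of its TPM in retained-intron transcripts, but 50.7% from the reads. The share was 61.7% ± 2.49 in Atp6v1e1, 60.4% ± 6.02 in Tcirg1, 56.0% ± 1.41 in Atp6v1c1, 51.9% ± 3.44 in Atp6ap1 and 33.4% ± 6.72 in Atp6v0d1, which had 50.6% from the reads. Atp6v0a1 and Atp6v0c have no retained-intron model, yet their coding shares were 24.9% ± 2.47 and 23.8% ± 1.72. Their TPM lay mostly in models annotated as processed transcript, led by Atp6v0a1-209 with 30.6% ± 2.49 and Atp6v0c-205 with 71.9% ± 2.09. From the reads Atp6v0c-205 still led with 56.0%, while Atp6v0a1-209 held 15.6% and another processed transcript, Atp6v0a1-205, led with 26.3%. A low coding share was therefore not limited to genes with an annotated retained intron. In coding transcripts Tcirg1 had 358, 403 and 432 TPM, against 573, 690.5 and 636 TPM for Psap, so Tcirg1 was 0.629 ± 0.0478 of Psap there (0.793 ± 0.0387 from the reads), whereas it was 1.67 ± 0.217 times Psap over all transcripts.

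Tfe3 (ENSMUSG00000000134.17, chromosome X, 7762560 to 7775202) had 37.0, 55.5 and 44.3 TPM and Tfeb (ENSMUSG00000023990.18, chromosome 17, 47737030 to 47792419) had 8.33, 17.99 and 7.38 TPM. Over all transcripts every library of Tfe3 was above every library of Tfeb, with ratios of 4.44, 3.08 and 6.00. That order did not hold in the other views. In coding transcripts Tfe3 had 5.60, 3.97 and 6.33 TPM against 6.60, 12.3 and 5.57 TPM for Tfeb, a ratio of 0.769 ± 0.413 with overlapping libraries, or 0.302 ± 0.104 in coding transcripts of the read-based table. In the read-based table the ratio was 1.45 ± 0.432, with Tfeb the higher of the pair in replicate 2, at 49.99 TPM against 48.2 TPM for Tfe3. Retained-intron transcripts held 87.7% ± 4.51 of Tfe3, the highest share of the 42 genes in this table, against 25.6% ± 5.37 of Tfeb. From the reads the shares were 82.6% of Tfe3, below Npc2 and Atp6v1b2, and 13.2% of Tfeb. Of the related factors that are not among the 42, Mitf had 40.8, 47.6 and 46.9 TPM, and Tfec, whose expression is known from macrophages, had 81.9, 45.6 and 136 TPM, a wide spread.

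Further genes of the same system were less abundant than the list in most groups. That difference was not tested. Members and further genes were chosen with these levels known, so the difference may come from the choice and describes the lists only. Of all protein-coding genes, 49.7% were detected. All 22 other lysosomal hydrolase genes were detected, 5 of them in the top decile, with a median of 8.52 TPM. Of 21 other lysosomal membrane genes 20 were detected and 9 were in the top decile, at a median of 26.1 TPM. Of 14 other V-ATPase genes 8 were detected, and the 6 that were not are isoform genes: Atp6v0a4, Atp6v0e2, Atp6v1b1, Atp6v1c2, Atp6v1e2 and Atp6v1g3. From the reads, 11 of those 14 reached the limit. Of 7 other cathepsins and cystatins 5 were detected, none in the top decile, at a median of 1.49 TPM. The 9 genes that share the factor family or control it had a median of 45.1 TPM. Of 39 genes of the autophagy machinery, which delivers cargo to lysosomes, 38 were detected and 10 were in the top decile, at a median of 15.2 TPM.

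The 3 libraries differed in these genes by more than counting noise for most members. After TMM scaling, 31 of 41 members (75.6%) varied beyond Poisson sampling in a chi-square test with Benjamini-Hochberg adjustment over 14330 genes, against 54.9% of all annotated genes tested and 57.7% of protein-coding ones. The test passes more readily for abundant genes, and the members were abundant. Their biological coefficient of variation had a median of 0.180, against 0.209 for detected protein-coding genes. The median fold between the highest and lowest library was 1.24, against 1.37. That fold includes counting error, which is larger at low counts. Detected members had a median of 52.4 TPM, against 7.32 for detected protein-coding genes, and genes of like level were not compared. Without replicate 2 the members' median coefficient was 0.141 and 22 varied beyond sampling, against 0.209 and 25 without replicate 1 and 0.216 and 26 without replicate 3. Among the 10 members that did not pass the test, Ctsb had 601, 609 and 594 CPM with an adjusted chi-square p of 0.251, Lamp1 had an adjusted p of 0.485 and Atp6v1c1 of 0.636. The other leading genes Tcirg1, Ctsc, Psap, Grn and Ctsd passed it.

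Replicate 2 was at one end of the larger differences. In 12 members the highest library was at least 1.4 times the lowest, a limit set after the values were seen, and replicate 2 was the highest or the lowest in all 12, against 82.0% of detected protein-coding genes with such a fold. Replicates 1 and 3 were at one end in 6 of the 12 each, against 55.0% and 63.0% of those genes. A library at one end was not always the one furthest from the gene's mean. Replicate 3 was furthest in Cst3, Lipa and Tfeb, with log2 deviations of -0.411, -0.291 and -0.399. Replicate 1 was furthest in Naglu and Ctss, with -0.338 and 0.280, and replicate 2 in the rest of the 12. Over all 41 detected members replicate 1 was at one end in 25 (61.0%), replicate 2 in 35 (85.4%) and replicate 3 in 22 (53.7%), against 59.7%, 77.0% and 63.3% of detected protein-coding genes. On the scale of TMM-scaled CPM, Ctsc had 1086, 683 and 1055, Ctsl 22.5, 13.3 and 23.2, Atp6v1a 152, 104 and 181 and Atp6v1e1 83.1, 52.6 and 83.1, each lowest in replicate 2. Gusb, with 56.0, 85.9 and 67.0, was highest there, as was Tfeb with 11.9, 13.7 and 8.27. Of 41 members, 14 were highest in replicate 1 (34.1%), 16 in replicate 2 (39.0%) and 11 in replicate 3 (26.8%), against 29.1%, 40.9% and 30% of detected protein-coding genes. In turn 11 were lowest in replicate 1 (26.8%), 19 in replicate 2 (46.3%) and 11 in replicate 3 (26.8%), against 30.6%, 36.1% and 33.3%. By role, 6 of 10 detected cathepsin-group genes were highest in replicate 1 and 7 of 12 other hydrolases in replicate 2. Counts by library depend on the scaling: by deposited TPM 30 of 41 were highest in replicate 2, 11 in replicate 3 and none in replicate 1, where protein-coding genes held 27.5% of all TPM, against 30.7% and 32.0% in the others. RNA input also differed between the libraries, and its part in these differences was not tested.

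**Figure D5:**
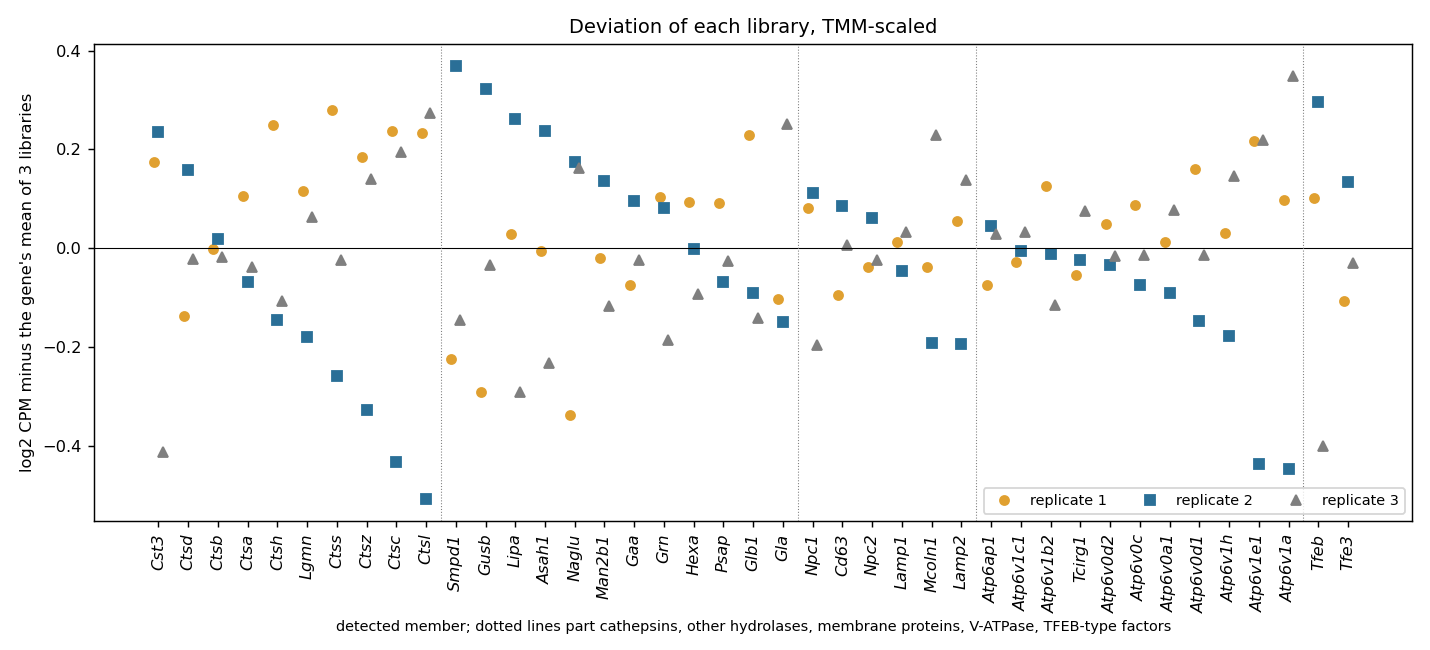
Deviation of each library from the gene's mean, in log2 TMM-scaled CPM, for the 41 detected members, grouped by role and ordered within a role by replicate 2. Replicate 2 is lowest for Ctsc, Ctsl, Atp6v1a and Atp6v1e1 and highest for Gusb and Tfeb.

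The read-based table gave a median of 1.24 times the gene-table level over detected members, against 1.29 over detected protein-coding genes. It was more than 2 times as high for 5 of 41 (12.2%), against 20.1%, namely Gla, Ctsl, Tfeb, Gaa and Atp6v0d1, at 3.63, 2.93, 2.85, 2.32 and 2.08 times. Values for these 5 rest on the choice of quantification more than the others do. Another annotated gene overlaps 16 of the 42 members, on the opposite strand for 12 and on the same strand for 6, among them Pltp beside Ctsa, Fdft1 beside Ctsb and Gm49369 with Ctsd. Whether the counting used strand is not given in the sources used here, so reads of such overlapping genes cannot be told apart with certainty. The deposited posterior standard deviation of the count exceeded 1% of the count in 2 members, Ctsl with at most 2.34% and Ctsd with at most 1.36%.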

How the data were processed

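Chromatin-bound total RNA was measured in 3 libraries of 1 group. Per the file headers, the authors deposited 3 tables for each library. A gene table and a transcript table share the layout of RSEM, in which the authors gave expected counts (fragments assigned to a gene or transcript, not whole) and TPM (scaled to effective length and to the library's total), per the file headers. A further transcript table, quantified directly from the reads, has kallisto's layout, with the authors' estimated counts and TPM. The build was mm10 with GENCODE M21, per the description deposited with each library, and the aligner is not given in the sources used here. Other deposited columns (lengths, posterior values) are described as the authors' own. Values come from the gene tables unless the read-based table, summed over the transcripts of 55450 genes, is named. Of all counts, 1.13%, 0.324% and 0.279% in replicates 1, 2 and 3 were of the phiX control and were left out with 26248 numeric entries and 96 spike-in entries, which had 0 counts.

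Whole numbers, obtained by rounding expected counts, entered edgeR 4.0.16 (TMM, dispersion with an intercept only), DESeq2 1.42.0 size factors and the chi-square test, in R 4.3.3; other steps used Python 3.11.15. Detection required a mean of 10 counts. Percentiles ranked mean log2(TPM + 1) among protein-coding genes. Log2 deviations used CPM + 0.5. Dispersion covered 14330 genes. With 1 group no contrast was fitted. All 42 members are named, with per-library values for those that lead or close a role group, stand in a paralog pair or are undetected, and others where the text turns on them. The members and lists were chosen with earlier results of these data known. The reads carry no molecular identifiers and may be PCR copies, so limits cover counting error only. Promoter sequences are from RefSeq (GRCm38.p6), for 34 members; splice sites are from mm10 with GENCODE M21.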

Additional observations from a re-analysis of the deposited data

How the results depend on the processing

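Leaving out each library in turn gave 41 detected members, 27 to 28 in the top decile, a median coefficient of variation of 0.141 to 0.216 with the low value without replicate 2, 22 to 26 members that varied beyond counting noise, against 31 with all 3, a median of 141.0 to 153.1 TPM for the cathepsin group and a median retained-intron share of 46.7% to 48.8%. With detected genes as background, the top decile held 18 members and the median percentile was 88.6, against 92.9 from the read-based table and 92.1 with CPM. The read-based table gave medians of 230.5 TPM for the cathepsin group, 43.8 for other hydrolases, 83.0 for V-ATPase and 37.1 for the factors, ratios of 4.91 (Tcirg1 to Atp6v0a1), 14.8 (Atp6v0d1 to Atp6v0d2), 1.45 (Tfe3 to Tfeb), 7.77 (Ctsb to Ctsl) and 0.315 (Npc1 to Npc2), and a leading-transcript share of 38.1%, against 44.0% in the authors' transcript table. TPM rescaled over protein-coding genes gave 489 for the cathepsin group, 81.2 for other hydrolases, 193 for the membrane group, 198 for V-ATPase and 94.3 for the factors. Protein-coding transcripts only, an alternative chosen after seeing the data, gave a median percentile of 92.9, medians of 75.1, 13.5, 26.7, 24.3 and 6.74 TPM in the same order, and ratios of 9.81 (Tcirg1 to Atp6v0a1), 8.39 (Atp6v0d1 to Atp6v0d2), 1.10 (Atp6v1b2 to Atp6v1a), 0.769 (Tfe3 to Tfeb), 9.52 (Ctsb to Ctsl), 0.0272 (Cst3 to Ctsb) and 0.748 (Npc1 to Npc2). In protein-coding transcripts of the read-based table, also chosen after seeing the data, the ratios were 9.32 (Tcirg1 to Atp6v0a1), 7.31 (Atp6v0d1 to Atp6v0d2), 0.528 (Atp6v1b2 to Atp6v1a), 0.302 (Tfe3 to Tfeb), 4.32 (Ctsb to Ctsl), 0.0322 (Cst3 to Ctsb), 0.498 (Lamp1 to Lamp2) and 0.880 (Npc1 to Npc2). Members highest in replicate 3 numbered 7 from the read-based table and 5 with total counts. By deposited TPM 0 were highest in replicate 1 and 30 in replicate 2, and by CPM within protein-coding genes 7, 27 and 7 were highest in replicates 1, 2 and 3, both chosen after seeing the data. The cause of these moves was not tested. For single genes, 24 of 42 levels moved by more than 1 SD in the read-based table, 29 in protein-coding transcripts only and 42 with TPM rescaled over protein-coding genes, which raises each level by construction. No paired analysis was possible because there is 1 group. Groups of 3 are too small for a test of outlying samples. Counts were fewest for Smpd1, Ctsk, Cst3 and Atp6v0d2, and their values are the least precise. The 41 detected members were therefore not the same genes in each case. Without replicate 2, Smpd1, with 8 and 10 counts, fell under the limit, and Ctsk, with 14 and 9 counts, passed it.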
